A study of Mus musculus with 8 samples.

Results

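The genes examined here are the receptor Kit, its ligand Kitl, and 6 germ cell regulators of the step from undifferentiated to differentiating spermatogonia: Sohlh1, Sohlh2, Dmrt1, Dmrtb1, Neurog3 and Nanos3. They were taken by gene symbol from a table of raw read counts, which held all 8 of them among 55421 genes. The counts came from poly(A) RNA-seq of 8 libraries of SSC culture, that is, primary cultures of undifferentiated spermatogonia from neonatal mouse testes (background C57BL/6XDBA/2), grown with bFGF and GDNF on a feeder layer of mitotically arrested embryonic fibroblasts. Cultures were Stra8KO or Spo11KO and received either vehicle (Veh) or NRRA, with 2 libraries in each of the 4 groups. NRRA is nutrient restriction combined with retinoic acid (RA). The nutrient-restricted medium was mostly Earle's balanced salt solution, so the growth factors of the complete medium were diluted along with its nutrients, and RA and nutrient restriction cannot be told apart in these libraries. Cultures with both genes intact and cultures given RA alone or nutrient restriction alone were not analysed here. Whether libraries sharing a group were derived from separate cultures is not in the labels, so the p-values measure only the spread between these samples. Both germ cells and feeder cells contributed RNA to each library.

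In the testis, KIT is a receptor tyrosine kinase that is nearly absent from spermatogonial stem cells and appears when spermatogonia commit to differentiate, and its ligand, also called stem cell factor, is made by somatic cells such as Sertoli cells. SOHLH1 and SOHLH2 are germ cell basic helix-loop-helix factors needed for that commitment and are known to bind the Kit gene. DMRT1 and DMRTB1 (also called DMRT6) are DM-domain transcription factors. DMRT1 is known to hold back the RA response and Stra8 in spermatogonia, and DMRTB1 to act at the passage from the spermatogonial to the meiotic program. NEUROG3 marks undifferentiated spermatogonia that are primed to differentiate, and NANOS3 is a zinc finger RNA-binding protein of germ cells that is found in undifferentiated spermatogonia. RA is the known trigger of the differentiation step.

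Promoter sequences of 7 of the 8 genes were found in RefSeq (assembly GRCm38.p6), as the 250 bases before and the 50 bases after the start site. Dmrt1 was not among them. Those of Kit and Sohlh1 are shown because these genes rose in both genotypes, and that of Nanos3 because it moved in opposite directions in the 2 genotypes. Kit (chr5:75574737-75575036, plus strand) has 2 start sites in the table, of which the first listed is given. Sohlh1 is at chr2:25847199-25847498, minus strand, and Nanos3 at chr8:84176503-84176802, minus strand. The Nanos3 start site lies inside the longer gene body that GENCODE draws. Capitals mark each E-box (CANNTG on either strand), the letters that basic helix-loop-helix factors are known to recognise.
Kit: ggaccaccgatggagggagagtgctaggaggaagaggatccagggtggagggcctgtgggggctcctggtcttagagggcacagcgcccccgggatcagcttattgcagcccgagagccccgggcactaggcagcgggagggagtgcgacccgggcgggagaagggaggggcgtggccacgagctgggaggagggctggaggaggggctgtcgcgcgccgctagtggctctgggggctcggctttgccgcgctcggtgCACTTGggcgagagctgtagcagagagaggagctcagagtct
Sohlh1: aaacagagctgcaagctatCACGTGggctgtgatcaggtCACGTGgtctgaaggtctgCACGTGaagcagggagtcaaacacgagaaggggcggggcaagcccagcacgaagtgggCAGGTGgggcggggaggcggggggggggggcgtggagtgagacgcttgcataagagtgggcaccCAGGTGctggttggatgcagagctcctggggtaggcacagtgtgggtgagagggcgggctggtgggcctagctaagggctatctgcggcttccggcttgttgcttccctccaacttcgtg
Nanos3: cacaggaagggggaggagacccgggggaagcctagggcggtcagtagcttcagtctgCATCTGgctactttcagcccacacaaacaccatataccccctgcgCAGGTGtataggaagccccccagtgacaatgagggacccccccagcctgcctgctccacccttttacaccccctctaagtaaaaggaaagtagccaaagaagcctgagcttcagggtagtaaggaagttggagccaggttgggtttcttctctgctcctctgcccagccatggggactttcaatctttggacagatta

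The Sohlh1 promoter held 5 E-boxes, and at least 5 were present in 2.1% of 32851 mouse promoters of the same length. Its 3 upstream copies, with first bases at -231, -211 and -192 from the start site, had the letters CACGTG. At least 3 copies of CACGTG were present in 0.0883% of promoters and any copy in 7.15%. The copy at -211 overlapped a nuclear receptor half-site (AGGTCA, at -215), which 16.3% of promoters held. The Kit window held 1 E-box at 8 bases after the start site, Nanos3 held 2, and Sohlh2, Neurog3 and Kitl held 1 each, where 72.3% of all promoters had at least 1. The core letters of a DMRT1 site (ACAATGT or ACATTGT) were not in the windows of these 6 genes or of Dmrtb1. CNCCTCAG, the motif named for STRA8 and MEIOSIN, was in the Sohlh2 window at -22, as in 7.94% of promoters. These matches describe letters only, and binding was not measured.

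Library totals were 20960794 to 27038868 counts, and levels are given as CPM, counts per 1000000 after scaling by edgeR's TMM method. Stra8, the target of the Stra8KO label, had 169 and 170 counts in Stra8KO NRRA against 12604 and 16191 counts in Spo11KO NRRA. In CPM, Spo11 stood no lower where the label reads Spo11KO, with 5.02 ± 0.974 CPM (SD, n = 2) against 3.16 ± 0.167 CPM in Stra8KO under NRRA. Gene-level counts thus did not check that label, and these cultures are called Spo11KO-labelled below. The libraries differed in their levels of cell type markers. All 8 pan-germ genes (such as Ddx4 and Dazl) were lower in Stra8KO in both media, with summed levels of 721.8 to 879.5 CPM against 1467.1 to 1725.1 CPM. All 16 fibroblast markers (such as Col1a1) were higher, with 25173.4 to 42484.7 CPM against 13359.7 to 22122.2 CPM. The part of the mixture of cells in the genotype differences was not tested, and fewer germ cells cannot be told apart from less RNA per cell in bulk libraries. The genotype differences are therefore also given with libraries scaled on the summed pan-germ counts, which raised the median log2 difference of all genes by 1.04 in Veh and by 0.985 in NRRA. Per 1000 pan-germ counts, Spo11 had 2.98 ± 0.662 in Spo11KO-labelled NRRA against 3.70 ± 0.0384 in Stra8KO NRRA (SD, n = 2). In Veh it had 2.11 ± 0.0600 against 2.07 ± 0.121. These values do not check the label either, as Stra8 is disrupted in the genotype compared.

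NRRA was first compared with Veh within each genotype, to ask how the differentiation factors answered it where Stra8 was disrupted and where the label gives an intact Stra8. Kit rose by far the most, 34.1-fold in Stra8KO and 62.4-fold in Spo11KO-labelled cultures. Sohlh1 rose 3.44-fold and 4.03-fold. Dmrt1 rose 1.78-fold in Stra8KO and 1.09-fold in Spo11KO-labelled cultures, the latter not with pan-germ scaling. Nanos3 and Dmrtb1 rose in Stra8KO and fell in Spo11KO-labelled cultures. Neurog3 passed the filter on low counts only through Stra8KO NRRA, so it is left out of the counts of called genes. In Stra8KO, 6 of the other 7 genes passed the test (5 higher, 1 lower, and 4 and 2 with pan-germ scaling), against 41.5% of the 20588 genes tested. In Spo11KO-labelled cultures all 7 did (4 higher, 3 lower, and 2 and 3 with pan-germ scaling), against 50.3%. Pan-germ scaling moved the median of all genes by -0.238 and -0.181 in these contrasts. With TMM, 5 of the 8 pan-germ genes were themselves called higher under NRRA in Stra8KO (62.5%) and 6 in Spo11KO-labelled cultures (75.0%), with 0 lower in either. A fall with pan-germ scaling is therefore relative to a reference that itself rose. The quasi-likelihood test of edgeR was used, adjusted by Benjamini-Hochberg over all genes tested, with calls at an adjusted p under 0.05. The contrasts within the genotypes share no library.

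**Figure D1:**
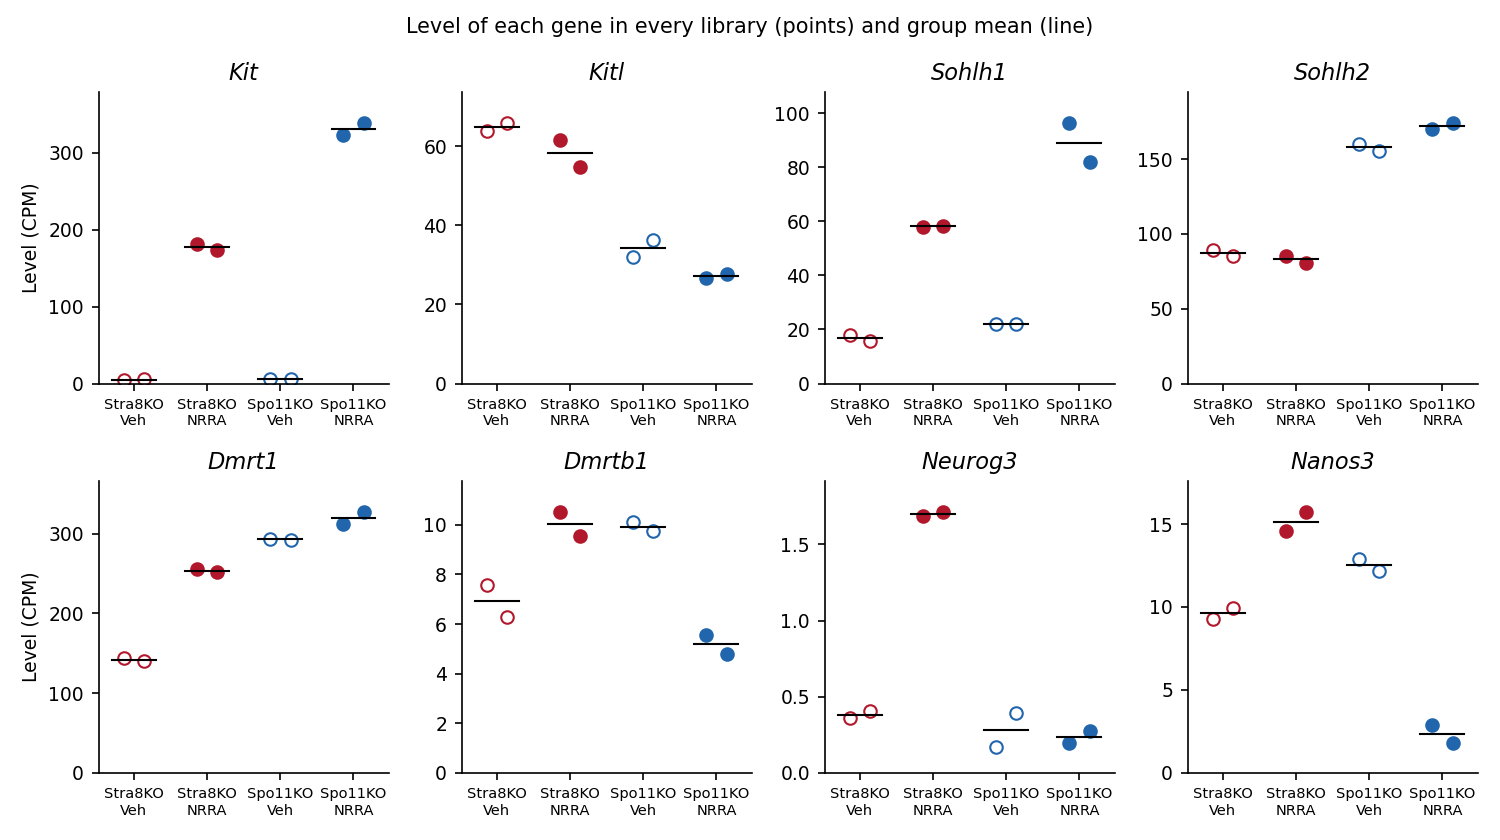
Level of each of the 8 genes in CPM (y axis, from 0, with its own scale in each panel) in the 4 groups (x axis), with a point for each library and a line at the mean of its group. Open points are Veh and filled points NRRA, red for Stra8KO and blue for Spo11KO-labelled cultures. Kit stood at 4.92 to 5.49 CPM in the 4 Veh libraries and between 173.5 and 338.6 CPM after NRRA, while Nanos3 was highest in Stra8KO NRRA and lowest in Spo11KO-labelled NRRA.

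Kit (ENSMUSG00000005672, chromosome 5, 75574916 to 75656722, plus strand, in GRCm38) was counted 110 and 109 times in Stra8KO Veh, against 126 and 122 times in Spo11KO-labelled Veh. After NRRA it had 3752 and 3758 counts in Stra8KO and 8395 and 9925 counts in Spo11KO-labelled cultures. The levels were 4.92 and 5.49 CPM in Stra8KO Veh, 5.31 and 5.31 CPM in Spo11KO-labelled Veh, 181.1 and 173.5 CPM in Stra8KO NRRA, and 323.9 and 338.6 CPM in Spo11KO-labelled NRRA. The Veh libraries of both genotypes overlapped, and every NRRA library lay far above them. The rise was 5.09 on the log2 scale in Stra8KO (SE 0.0710, edgeR adjusted p = 6.37e-40) and 5.96 in Spo11KO-labelled cultures (SE 0.0665, edgeR adjusted p = 8.22e-43). With pan-germ scaling the rises were 4.85 and 5.78. Ordered from the largest rise, Kit was gene 23 of 20588 in Stra8KO and gene 13 in Spo11KO-labelled cultures. The rise was smaller in Stra8KO by 0.87 on the log2 scale, tested as the interaction (SE 0.132, edgeR adjusted p = 1.61e-06). With pan-germ scaling this difference was -0.93 (edgeR adjusted p = 3.53e-05). That scaling moved the median interaction of all genes by only -0.057, so it could change little here. Gene-level counts do not separate isoforms of Kit, and KIT protein was not measured here.

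KIT is also a marker of other cells, namely mast cells, melanocytes and Leydig cells. The mast cell proteases Cpa3, Tpsab1, Tpsb2 and Mcpt4 and the receptor gene Fcer1a were at 3 counts or fewer in every library. Of the 8 mast cell markers, 5 to 7 were at that floor in a group, and their summed level was 0.579 to 6.05 CPM, of which Hdc held most. The pigment genes Tyr, Tyrp1, Dct and Mlana were at the floor in every group, and the 7 melanocyte markers summed to 16.4 to 20.8 CPM through Mitf, Pmel and Sox10. The 7 Leydig markers summed to 5.94 to 8.63 CPM, with 2 to 4 of them at the floor, among them Insl3 and Lhcgr in every group. Under NRRA the mast cell sum went from 2.68 to 3.58 CPM up to 5.26 to 6.05 CPM in Stra8KO, and from 3.87 to 4.05 CPM down to 0.579 to 0.887 CPM in Spo11KO-labelled cultures. The melanocyte sum went from 18.6 to 19.2 CPM down to 16.4 to 17.3 CPM in Stra8KO, and from 16.8 to 17.9 CPM up to 20.3 to 20.8 CPM in Spo11KO-labelled cultures. The part of such cells in the level of Kit was not tested.

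Kitl (ENSMUSG00000019966, chromosome 10, 100015630 to 100100416, plus strand) went the other way. It had 63.8 and 65.8 CPM in Stra8KO Veh and 61.6 and 54.8 CPM in Stra8KO NRRA. In Spo11KO-labelled cultures it had 32.0 and 36.4 CPM in Veh and 26.8 and 27.6 CPM in NRRA. The NRRA libraries lay below the Veh libraries in both genotypes, in Stra8KO by a gap narrower than the distance between its NRRA libraries. Kitl fell by 0.33 on the log2 scale in Spo11KO-labelled cultures (SE 0.0717, edgeR adjusted p = 0.000152), and by 0.16 in Stra8KO (SE 0.0627, edgeR adjusted p = 0.0435). Both falls rested on single libraries. In Stra8KO the edgeR adjusted p was 0.0959 without Veh replicate 1, 0.214 without Veh replicate 2 and 0.496 without NRRA replicate 2, with log2 changes of -0.18, -0.13 and -0.073. In Spo11KO-labelled cultures the change was -0.17 without Veh replicate 2 (edgeR adjusted p = 0.0979). The falls were larger against the fibroblast markers, at -0.88 and -1.03 on the log2 scale with libraries scaled on them (edgeR adjusted p = 9.66e-30 and 1.67e-30), where the median of all genes moved by -0.725 and -0.698. Relative to that median, the falls were close to those with TMM. Sertoli cells, the usual source of the ligand, were scarcely visible: the 12 Sertoli markers summed to 31.3 to 71.8 CPM, mostly Sox9 and Clu, and Fshr was at the floor in every group.

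The ratio of receptor to ligand within a library does not depend on scaling, but it can still move with the mixture of cells. Per kilobase of exon, Kit had 0.0532 ± 0.00296 of the level of Kitl in Stra8KO Veh and 0.103 ± 0.00929 in Spo11KO-labelled Veh (SD, n = 2). After NRRA the ratio was 2.02 ± 0.105 in Stra8KO and 8.08 ± 0.0958 in Spo11KO-labelled cultures (SD, n = 2). Receptor transcript was thus below that of its ligand in each Veh library and above it in each NRRA library. After NRRA, Kit had means of 207.6 per 1000 pan-germ counts in Stra8KO and 195.9 in Spo11KO-labelled cultures. Kitl had means of 1.38 and 1.25 per 1000 fibroblast counts there. The part of the mixture in the genotype difference of this ratio was not tested.

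Sohlh1 (ENSMUSG00000059625, chromosome 2, 25842995 to 25847248, minus strand), whose promoter is given above, rose in both genotypes. Its levels were 18.1 and 15.6 CPM in Stra8KO Veh, 57.8 and 58.4 CPM in Stra8KO NRRA, 22.1 and 22.1 CPM in Spo11KO-labelled Veh, and 96.3 and 81.9 CPM in Spo11KO-labelled NRRA. No NRRA library overlapped a Veh library. The log2 rise was 1.78 in Stra8KO (SE 0.0805, edgeR adjusted p = 1.74e-21) and 2.01 in Spo11KO-labelled cultures (SE 0.0708, edgeR adjusted p = 4.5e-25). With pan-germ scaling they were 1.54 and 1.83. The rises differed by -0.23 (95% interval -0.45 to -0.0025), which did not pass the test after adjustment (edgeR adjusted p = 0.142). Without Spo11KO-labelled NRRA replicate 2, the lower of its pair, the difference was -0.41 (edgeR adjusted p = 0.00343), and with total counts in place of TMM it was -0.32 (edgeR adjusted p = 0.0339).

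Sohlh2 (ENSMUSG00000027794, chromosome 3, 55182028 to 55209957, plus strand), the partner factor, moved little with TMM. It had 89.4 and 84.9 CPM in Stra8KO Veh and 85.2 and 80.6 CPM in Stra8KO NRRA, which overlapped. In Spo11KO-labelled cultures it had 160.0 and 155.5 CPM in Veh and 170.0 and 173.9 CPM in NRRA, which did not. The log2 change was -0.073 in Stra8KO (95% interval -0.17 to 0.027, edgeR adjusted p = 0.25) and 0.12 in Spo11KO-labelled cultures (edgeR adjusted p = 0.0158), and with pan-germ scaling these became -0.31 (edgeR adjusted p = 3.73e-05) and -0.057 (edgeR adjusted p = 0.37), so that the fall in Stra8KO was called and the rise was not. The small difference between these changes, -0.20 on the log2 scale (edgeR adjusted p = 0.0229), was lost without Stra8KO Veh replicate 1 (-0.16, edgeR adjusted p = 0.165) or Stra8KO NRRA replicate 2 (-0.16, edgeR adjusted p = 0.141). The ratio of Sohlh1 to Sohlh2 per kilobase, which no scaling changes, was 0.354 ± 0.0239 in Stra8KO Veh and 0.257 ± 0.00475 in Spo11KO-labelled Veh, against 1.29 ± 0.0593 and 0.952 ± 0.124 after NRRA (SD, n = 2).

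**Figure D2:**
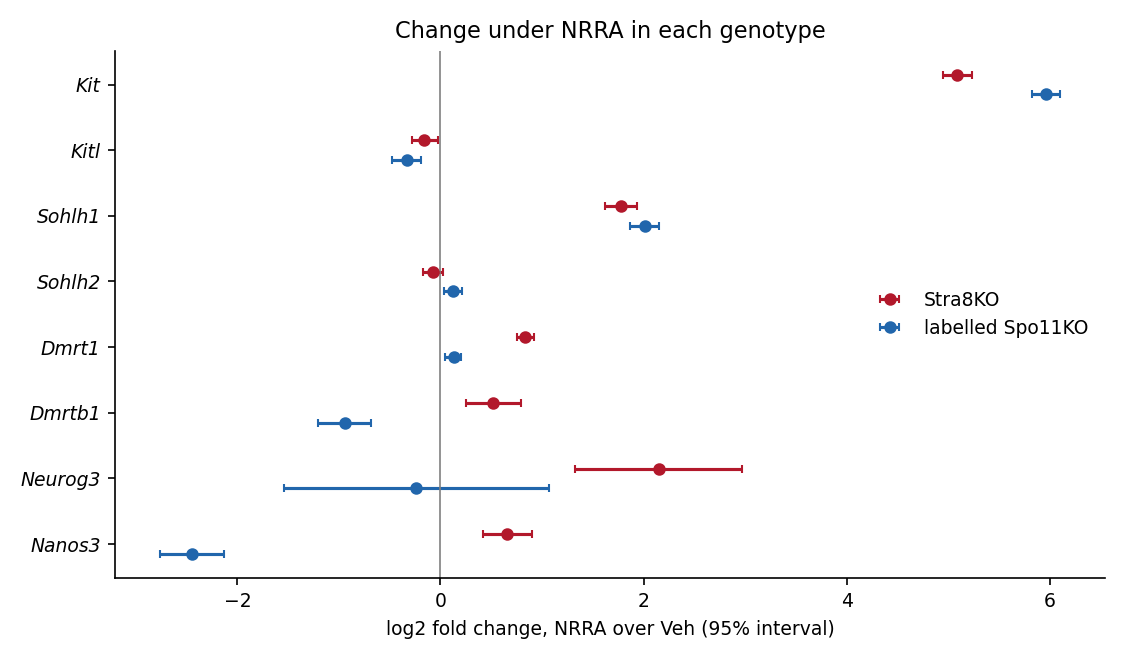
Log2 fold change of each gene under NRRA against Veh (x axis), with 95% intervals from the edgeR fit, in Stra8KO (red) and Spo11KO-labelled cultures (blue). Kit (5.09 and 5.96) and Sohlh1 (1.78 and 2.01) rose in both, whereas Nanos3 (0.66 and -2.45) and Dmrtb1 (0.52 and -0.94) had opposite signs. Sohlh2 and Dmrt1 in Spo11KO-labelled cultures (0.12 and 0.13) changed sign with pan-germ scaling.

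Dmrt1 (ENSMUSG00000024837, chromosome 19, 25505618 to 25604329, plus strand) was the most abundant of the 8 genes per kilobase in every group. Sertoli cells are known to make DMRT1 as well, and their markers were low as given for Kitl. It had 144.2 and 139.8 CPM in Stra8KO Veh and 255.2 and 251.3 CPM in Stra8KO NRRA. In Spo11KO-labelled cultures it already stood at 293.6 and 292.0 CPM in Veh, and it had 312.2 and 326.5 CPM in NRRA. In CPM the Stra8KO Veh libraries were thus the lowest, whereas per 1000 pan-germ counts Dmrt1 had means of 196.3 in both Veh groups, 296.7 in Stra8KO NRRA and 188.9 in Spo11KO-labelled NRRA. The log2 change was 0.83 in Stra8KO (SE 0.0404, edgeR adjusted p = 5.19e-21) and 0.13 in Spo11KO-labelled cultures (SE 0.0380, edgeR adjusted p = 0.00537), and with pan-germ scaling it was 0.60 in Stra8KO and -0.056 in Spo11KO-labelled cultures, the latter not called. The changes differed by 0.71 (SE 0.0554, edgeR adjusted p = 1.39e-13). Leaving out Spo11KO-labelled NRRA replicate 1 gave 0.23 for the smaller change.

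Dmrtb1 (ENSMUSG00000028610, chromosome 4, 107676290 to 107684230, minus strand) had 7.56 and 6.29 CPM in Stra8KO Veh and 10.5 and 9.55 CPM in Stra8KO NRRA. It had 10.1 and 9.75 CPM in Spo11KO-labelled Veh and 5.56 and 4.81 CPM in Spo11KO-labelled NRRA. The groups did not overlap in either genotype, and their order was reversed between the genotypes. Dmrtb1 rose by 0.52 on the log2 scale in Stra8KO (SE 0.134, edgeR adjusted p = 0.00138) and fell by 0.94 in Spo11KO-labelled cultures (SE 0.132, edgeR adjusted p = 8.3e-08). With pan-germ scaling the rise in Stra8KO was 0.28 and no longer passed (edgeR adjusted p = 0.0896), and the fall was -1.12. The difference between the changes, 1.47 (SE 0.188, edgeR adjusted p = 4.91e-08), was 1.41 with pan-germ scaling.

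Nanos3 (ENSMUSG00000056155, chromosome 8, 84173731 to 84185217, minus strand) had the same pattern on a larger scale. It had 9.30 and 9.92 CPM in Stra8KO Veh and 14.6 and 15.7 CPM in Stra8KO NRRA. In Spo11KO-labelled Veh it had 12.9 and 12.2 CPM, and in Spo11KO-labelled NRRA 2.89 and 1.77 CPM, which rest on 75 and 52 counts. No group overlapped another. The gene rose by 0.66 on the log2 scale in Stra8KO (SE 0.118, edgeR adjusted p = 1.16e-05) and fell by 2.45 in Spo11KO-labelled cultures (SE 0.154, edgeR adjusted p = 3.22e-17), which is 5.45-fold lower, and with pan-germ scaling the values were 0.42 and -2.63. The interaction was 3.11 (SE 0.196, edgeR adjusted p = 2.32e-16), the largest of the 8 genes, with 0.534% of all genes tested at or above it. Of 15 markers of undifferentiated spermatogonia, 8 rose and 6 fell in Stra8KO (93.3% called, against 41.5% of all genes), and 1 rose and 12 fell in Spo11KO-labelled cultures (86.7% against 50.3%). Their interaction was called higher for 14 and lower for 0 (93.3% against 24.7%). Their median log2 change was 0.33 in Stra8KO and -1.85 in Spo11KO-labelled cultures, against 0.013 over all genes tested in each. The list holds Nanos2, and the part of a change in the proportion of cell types was not tested.

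Neurog3 (ENSMUSG00000044312, chromosome 10, 62133090 to 62134763, plus strand) was close to the limit of detection. It had 8 and 8 counts in Stra8KO Veh, 35 and 37 counts in Stra8KO NRRA, 4 and 9 counts in Spo11KO-labelled Veh and 5 and 8 counts in Spo11KO-labelled NRRA. Only Stra8KO NRRA reached the level required by the filter on low counts, so a gene kept in this way had to stand high there, and its calls are given as a description. The fitted rise in Stra8KO was 2.15 on the log2 scale (SE 0.406, edgeR adjusted p = 2.77e-05), and the change in Spo11KO-labelled cultures was -0.24 (95% interval -1.54 to 1.07). The interaction of 2.38 (edgeR adjusted p = 0.0242) was not called by DESeq2 (adjusted p = 0.0710) or without Stra8KO Veh replicate 1 (2.30, edgeR adjusted p = 0.0668), Spo11KO-labelled Veh replicate 2 (1.6, edgeR adjusted p = 0.345) or Spo11KO-labelled NRRA replicate 1 (2.09, edgeR adjusted p = 0.0741). Exons of Neurog3 overlap those of Fam241b on the opposite strand, and whether the counting used strand is not stated in the sources used here. Fam241b itself had 10.2, 12.9, 15.0 and 7.05 CPM on average in Stra8KO Veh, Stra8KO NRRA, Spo11KO-labelled Veh and Spo11KO-labelled NRRA, so it was highest in Spo11KO-labelled Veh, whereas Neurog3 was highest in Stra8KO NRRA. The part of these reads in the values of Neurog3 was not tested.

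The interaction (the NRRA change of Stra8KO less the NRRA change of Spo11KO-labelled cultures) was called for 5 of the 7 genes (3 higher, 2 lower), against 24.7% of all genes tested. It was higher for Nanos3, Dmrtb1 and Dmrt1 and lower for Kit and Sohlh2. For these 5 genes the sign was the same with pan-germ scaling, which moved the median interaction of all genes by only -0.057 and so could change little. The interaction was not called for Kitl (0.18, 95% interval -0.017 to 0.37) or Sohlh1.

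The genotypes were then compared within a medium. These contrasts share their libraries with those above and with the interaction, so they restate the same levels in another order. In Veh, 6 of the 7 genes passed the test (1 higher and 5 lower in Stra8KO), against 62.1% of all genes tested. After NRRA all 7 passed (3 higher, 4 lower), against 64.3%. With pan-germ scaling the counts were 6 higher and 0 lower in Veh, and 5 higher and 0 lower in NRRA, on a scale on which the median of all genes stood at 1.04 and 1.05.

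In Veh, Dmrt1 was lower in Stra8KO by 1.04 on the log2 scale, Sohlh2 by 0.86, Dmrtb1 by 0.51, Sohlh1 by 0.39 and Nanos3 by 0.39, and with pan-germ scaling none of the 5 was lower, at 0.00038, 0.19, 0.53, 0.66 and 0.66. Counted per 1000 pan-germ counts, Dmrt1 had 199.8 and 192.9 in Stra8KO Veh and 200.2 and 192.5 in Spo11KO-labelled Veh, so these libraries overlapped. The call for Nanos3 was lost without Stra8KO Veh replicate 1 (-0.34, edgeR adjusted p = 0.0631). Kit was not called in Veh with TMM (-0.033, 95% interval -0.28 to 0.22, edgeR adjusted p = 0.833). Per 1000 pan-germ counts it had 6.82 and 7.57 in Stra8KO against 3.62 and 3.50, a difference of 1.01 on the log2 scale (edgeR adjusted p = 2.99e-07), close to the median of all genes on that scale. Kitl was higher in Stra8KO by 0.92 (SE 0.0663, edgeR adjusted p = 1.14e-15). Scaled on the fibroblast markers it was not (-0.006, SE 0.0707), with 2.54 and 2.55 counts per 1000 fibroblast counts against 2.40 and 2.71.

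After NRRA, Kit was lower in Stra8KO by 0.90 on the log2 scale (SE 0.0424, edgeR adjusted p = 1.25e-21), but with pan-germ scaling it was 0.084 higher and not called (SE 0.0481, edgeR adjusted p = 0.107). Per 1000 pan-germ counts, Kit had 205.9 and 209.4 in Stra8KO and 195.6 and 196.3 in Spo11KO-labelled cultures. The libraries did not overlap. Sohlh2 behaved alike, lower by 1.05 with TMM and by 0.066 with pan-germ scaling (edgeR adjusted p = 0.258), with 96.9 and 97.3 against 102.6 and 100.8 per 1000 pan-germ counts. Sohlh1 (-0.61 with TMM, 0.37 with pan-germ scaling) and Dmrt1 (-0.33 and 0.65) changed sign between the scalings and passed the test on both. Nanos3 (2.72 and 3.70) and Dmrtb1 (0.95 and 1.94) were higher in Stra8KO on either scale. Neurog3 had 2.82 and 3.80, given as a description only, since it passed the filter through Stra8KO NRRA alone and had to stand high there. Per 1000 pan-germ counts, Nanos3 had 16.6 and 18.9 in Stra8KO and 1.75 and 1.03 in Spo11KO-labelled cultures. Kitl was higher in Stra8KO by 1.10 (SE 0.0677, edgeR adjusted p = 8.46e-18) and by 0.14 when scaled on the fibroblast markers (SE 0.0721, edgeR adjusted p = 0.0700).

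**Figure D3:**
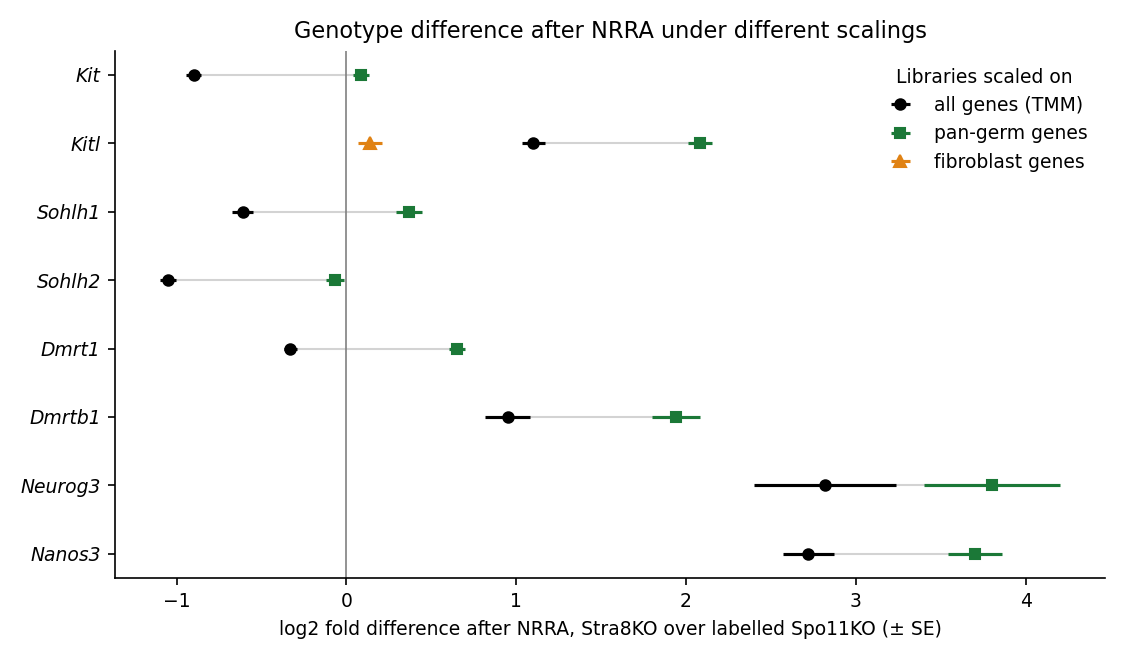
Log2 difference of each gene after NRRA, Stra8KO over Spo11KO-labelled cultures (x axis, ± SE), with libraries scaled on all genes by TMM (circles), on 8 pan-germ genes (squares) or, for Kitl, on 16 fibroblast markers (triangle). Kit moved from -0.90 to 0.084 and Sohlh2 from -1.05 to -0.066 with pan-germ scaling. Sohlh1 and Dmrt1 changed sign, and Nanos3 and Dmrtb1 were higher in Stra8KO on both scales. Neurog3 is drawn as a description, since it passed the filter on low counts only through Stra8KO NRRA.

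Levels were also ordered between the genes, per kilobase of exon. In Stra8KO Veh the order was Dmrt1 (54.7 ± 1.19 CPM per kilobase, SD, n = 2), Sohlh2 (36.9 ± 1.32), Sohlh1 (13.1 ± 1.35), Kitl (11.0 ± 0.238), Nanos3 (10.4 ± 0.472), Dmrtb1 (3.33 ± 0.429), Kit (0.584 ± 0.0452) and Neurog3 (0.227 ± 0.0190). Kitl and Nanos3 lay within the sum of their SDs. In Stra8KO NRRA, Kit had 19.9 ± 0.606 CPM per kilobase and stood in place 4, behind Dmrt1, Sohlh1 and Sohlh2. In Spo11KO-labelled cultures it moved from place 7 of 8 (0.596 ± 0.000181 CPM per kilobase) to place 4 (37.2 ± 1.17), behind Dmrt1 (123.1 ± 3.91), Sohlh2 (72.7 ± 1.15) and Sohlh1 (69.1 ± 7.90), and the last of these could not be separated from Sohlh2. Nanos3 (2.53 ± 0.857) and Dmrtb1 (2.49 ± 0.253) were level there.

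Kit and Dmrt1 lie in clusters of related genes, which allowed a comparison with neighbours. Kit is between Pdgfra (chromosome 5, 75152292 to 75198215), a receptor gene of fibroblasts, and Kdr (75932827 to 75978458), a VEGF receptor gene of endothelium. In Stra8KO, Pdgfra went from 242.6 ± 8.66 CPM in Veh to 351.5 ± 0.606 CPM in NRRA (SD, n = 2), a log2 rise of 0.54 (SE 0.0431, edgeR adjusted p = 7.63e-14), and it rose by 0.19 in Spo11KO-labelled cultures (SE 0.0446, edgeR adjusted p = 0.000402). Kdr stayed at 0.951 to 2.62 CPM on average and was not called in either genotype (log2 0.78 and -0.36, edgeR adjusted p = 0.0572 and 0.186). Neither neighbour moved on the scale of Kit.

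Dmrt3 (chromosome 19, 25610301 to 25623921) and Dmrt2 (25672411 to 25678991) follow Dmrt1 on the same strand. Dmrt3 had 7.69 and 8.01 CPM in Stra8KO Veh and 4.87 and 4.98 CPM in Stra8KO NRRA, and 25.9 and 23.3 CPM in Spo11KO-labelled Veh against 11.0 and 11.9 CPM in NRRA. It fell in both genotypes, by 0.67 (SE 0.146, edgeR adjusted p = 0.000225) and by 1.10 on the log2 scale (SE 0.0906, edgeR adjusted p = 1.22e-13). Dmrt2 rose by 0.57 in Stra8KO (SE 0.144, edgeR adjusted p = 0.00121) and was not called in Spo11KO-labelled cultures (-0.048, SE 0.182). Per kilobase, Dmrt1 had 17.1 ± 0.852 times the level of Dmrt3 in Stra8KO Veh and 48.4 ± 1.29 times in Stra8KO NRRA, and 11.3 ± 0.791 and 26.3 ± 0.524 times in Spo11KO-labelled Veh and NRRA (SD, n = 2).

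**Figure D4:**
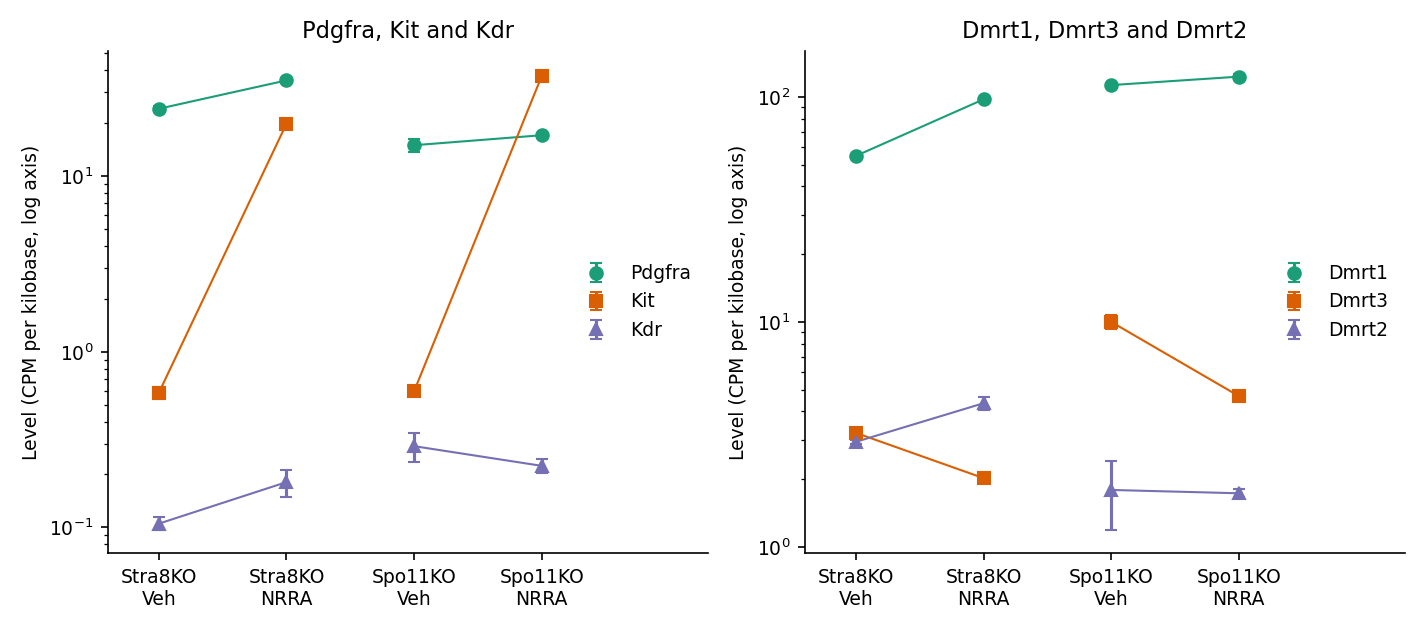
Levels of neighbouring genes in CPM per kilobase (y axis, log scale) in the 4 groups (x axis), as mean ± SD of 2 libraries, with lines joining Veh and NRRA of a genotype. In the left panel Kit rose from 0.584 to 19.9 and from 0.596 to 37.2 between Pdgfra and Kdr, and in the right panel Dmrt3 fell beside Dmrt1.

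Other relatives of the 8 genes were also counted. Of 17 relatives, 14 passed the filter on low counts, and Dmrta1, Neurog1 and Neurog2 (at most 6 counts in any library) did not. Under NRRA 5 rose and 1 fell in Stra8KO (42.9% called, against 41.5% of all genes), and 7 rose and 4 fell in Spo11KO-labelled cultures (78.6% against 50.3%). With pan-germ scaling 2 rose and 3 fell, and 5 rose and 4 fell. Nanos2, the RNA-binding relative of Nanos3 known for keeping spermatogonial stem cells undifferentiated, had 185 and 202 counts in Spo11KO-labelled Veh and 6 and 19 counts in NRRA, a log2 fall of 4.18 (SE 0.249, edgeR adjusted p = 5.54e-18). In Stra8KO it had 44 and 34 counts in Veh and 34 and 45 counts in NRRA, which overlapped (0.013, SE 0.283). The interaction of Nanos2 was 4.19 (SE 0.419, edgeR adjusted p = 1.3e-10), with the same sign as that of Nanos3. Nanos1 rose in Spo11KO-labelled cultures (0.76, SE 0.0721, edgeR adjusted p = 6.34e-12) and had about the same level in both media in Stra8KO (18.7 ± 0.0264 and 19.4 ± 0.445 CPM, SD, n = 2). Flt3, a receptor of the same class as Kit, was 2.76 higher in Stra8KO than in Spo11KO-labelled cultures in Veh and 3.11 higher in NRRA on the log2 scale (edgeR adjusted p = 2.61e-09 and 5.82e-13), from 59 to 110 counts against 9 to 21.

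Genes tied to the SOHLH and DMRT1 factors, as partners or reported targets, formed a list of 10, all of which passed the filter. In Stra8KO 6 rose and 0 fell under NRRA (60.0% called, against 41.5% of all genes), and in Spo11KO-labelled cultures 6 rose and 4 fell (100% against 50.3%). With pan-germ scaling 4 rose and 1 fell, and 4 rose and 4 fell. Lhx8 and Nobox, homeobox genes of the oocyte program linked to SOHLH1, and Sox3, an X-linked factor of committed spermatogonia, had the largest rises of the list in Spo11KO-labelled cultures. That of Nobox was 2.20 (SE 0.318, edgeR adjusted p = 1.68e-07), from a low level of 0.553 ± 0.290 CPM in Veh to 2.56 ± 0.187 CPM in NRRA (SD, n = 2). Lhx8 had 6 and 6 counts in Spo11KO-labelled Veh and 172 and 211 counts in NRRA (log2 4.73, SE 0.285, edgeR adjusted p = 8.35e-18), against 12, 8, 16 and 16 counts in Stra8KO Veh and NRRA (0.67, SE 0.461, edgeR adjusted p = 0.262). Its interaction was -4.06 (SE 0.669, edgeR adjusted p = 7.12e-06). Sox3 rose in both, by 0.73 in Stra8KO and 1.83 in Spo11KO-labelled cultures (edgeR adjusted p = 1.32e-09 and 8.32e-26). Sall4, a zinc finger partner of spermatogonial factors, rose by 1.05 in Stra8KO and by 0.20 in Spo11KO-labelled cultures (edgeR adjusted p = 2.22e-22 and 7.46e-05). Gfra1, the GDNF receptor subunit, and Zbtb16, a factor of undifferentiated spermatogonia, rose in Stra8KO (0.80 and 0.59) and fell in Spo11KO-labelled cultures (-1.85 and -1.04).

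The transcripts of signalling proteins known to act downstream of KIT moved little beside the receptor itself. All 51 genes of this list passed the filter. In Stra8KO 12 rose and 18 fell under NRRA, and in Spo11KO-labelled cultures 17 rose and 20 fell, that is, 58.8% and 72.5% were called against 41.5% and 50.3% of all genes. The split depended on scaling: with pan-germ scaling 5 rose and 34 fell, and 9 rose and 30 fell, and with total counts 22 rose and 16 fell in Spo11KO-labelled cultures. Their medians were -0.081 and -0.023, against 0.013 over all genes tested, and the list spanned -1.04 to 1.09 and -1.37 to 0.95. These genes are used in most cells, so feeder RNA can contribute to their counts. Grb10, an adaptor of receptor kinases, rose in both genotypes (1.09, SE 0.0390, and 0.95, SE 0.0407). Mtor, the growth kinase, rose by 0.56 and 0.69, and its partner gene Rptor fell by 0.15 and 0.27 (edgeR adjusted p = 0.011 and 6.55e-06). Sh2b3, whose product restrains KIT signals, fell by 1.04 in Stra8KO and by 1.37 in Spo11KO-labelled cultures (edgeR adjusted p = 3.08e-21 and 1.9e-25). Pik3cd, a catalytic subunit of phosphoinositide 3-kinase, had 175.7 and 159.0 CPM in Spo11KO-labelled Veh and 64.8 and 64.4 CPM in NRRA, a log2 fall of 1.37 (SE 0.0505), and 78.7 and 73.4 against 72.4 and 71.5 CPM in Stra8KO (-0.081, edgeR adjusted p = 0.25). The interaction of Pik3cd was 1.29 (SE 0.0743, edgeR adjusted p = 1.2e-17). Fyn, a Src-family kinase, followed the same pattern (-0.11 and -0.89, interaction 0.78). In all, 25 of the 51 interactions were called (12 higher, 13 lower), or 49.0% against 24.7%, and 16 without Stra8KO Veh replicate 1. With total counts 8 were higher and 19 lower.

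**Figure D5:**
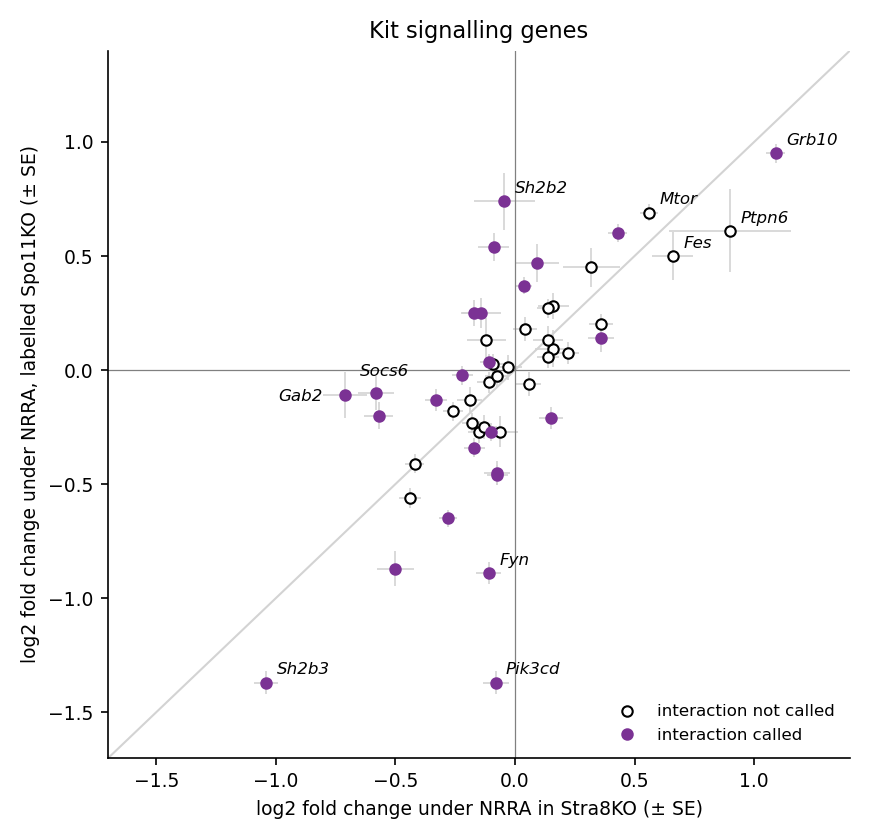
Log2 fold change under NRRA in Stra8KO (x axis) and in Spo11KO-labelled cultures (y axis), each ± SE, for 51 genes known to act downstream of KIT, with a diagonal of equal change. Filled points had a called interaction (25 genes). Grb10 and Sh2b3 lie at the ends in both genotypes, and Pik3cd and Fyn lie near 0 in Stra8KO and below in Spo11KO-labelled cultures.

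Of the same signalling genes, 24 were higher and 21 lower in Stra8KO in Veh (88.2% called, against 62.1% of all genes), and 25 were higher and 16 lower in NRRA (80.4% against 64.3%). With pan-germ scaling 48 and 47 were higher and 0 lower, and with total counts 17 were higher and 23 lower in Veh and 12 higher and 26 lower in NRRA. With TMM the medians were 0.072 and 0.066 against 0.002 and 0.066 over all genes. Lyn (1.15 in Veh), Fes (0.92), Src (0.89) and Pik3r1 (0.81) were higher in Stra8KO, where the fibroblast markers were also higher, with a median of 0.89 for those markers in Veh. Pik3cd (-1.14, the lowest of the list), Grb7 (-1.07), Foxo1 (-0.76) and Pik3cb (-0.70) were called lower in Veh with TMM. None of them was called lower with pan-germ scaling. Per 1000 pan-germ counts in Veh, Pik3cd had a mean of 105.2 in Stra8KO against 112.3, and Grb7 had 12.6 against 12.8. Foxo1 had 130.4 against 107.2, and Pik3cb 29.9 against 23.6. The pan-germ genes were lower with TMM by a median of 0.98.

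KIT-positive spermatogonia are known to cycle faster, with D-type cyclins among the regulated genes. In a list of 18 cell cycle genes, all of which passed the filter, 3 rose and 4 fell in Stra8KO under NRRA (38.9% called, against 41.5% of all genes), and 5 rose and 10 fell in Spo11KO-labelled cultures (83.3% against 50.3%). With pan-germ scaling 0 rose and 12 fell in Stra8KO and 2 rose and 11 fell in Spo11KO-labelled cultures, and with total counts 6 rose and 7 fell in the latter. Ccnd1 fell by 1.32 on the log2 scale in both genotypes (edgeR adjusted p = 4.33e-29 and 1.06e-28). The Ccnd1 mean per 1000 fibroblast counts was close between genotypes: 37.4 (Stra8KO) against 36.2 under vehicle, 9.04 against 8.91 under NRRA. Its mean per 1000 pan-germ counts was higher in Stra8KO, at 1317.0 against 324.6 under vehicle, then 447.0 against 114.5 under NRRA. The part of feeder RNA in the fall of Ccnd1 was not tested. Ccnd2, a cyclin of differentiating spermatogonia, had 1236.0 ± 12.4 CPM in Veh and 1241.8 ± 13.3 CPM in NRRA of Stra8KO (SD, n = 2), and fell by 0.76 in Spo11KO-labelled cultures (SE 0.0327, edgeR adjusted p = 9.72e-23). Mki67, the proliferation marker, fell by 0.47 in Stra8KO (edgeR adjusted p = 5.32e-12) and by 0.18 in Spo11KO-labelled cultures (edgeR adjusted p = 0.000263). Mycn rose by 0.32 in Stra8KO and fell by 1.08 in Spo11KO-labelled cultures (edgeR adjusted p = 4.16e-05 and 5.67e-19). Of the 18 interactions 9 were called, 4 higher and 5 lower (50% against 24.7%).

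For each of the 8 genes, the genes most like it over the 8 libraries were found by the root mean square difference of centred log2 CPM, as a description without a test. This difference grows with the size of a gene's changes, which were largest for Kit. The nearest to Kit were Ptn (0.844), Rarb (0.852) and Rgs4 (0.856), with Pearson r of 0.963, 0.952 and 0.959 over the 8 libraries. The other 7 had neighbours at smaller differences, though not always at a higher correlation: the 3 nearest to Dmrtb1 had r of 0.948, 0.945 and 0.942. Among the nearest to Kitl were Ecm1 (0.0587) and Arsj (0.0642), and those to Sohlh2 were Rttn (0.0342), Tex13b (0.0430) and Phf13 (0.0466). Sohlh1 was nearest to Stox1 (0.165), Rab11fip4 (0.190) and Sept4 (0.206), and Dmrt1 to Smim24 (0.0817), Pced1c-ps (0.0931) and Eml4 (0.0977). Dmrtb1 was nearest to Fam241b (0.132), Hoxb3os (0.135) and Mycn (0.137), Nanos3 to Adgrg1 (0.142), Pecam1 (0.210) and Ccdc162 (0.210), and Neurog3 to Efcc1 (0.159), Disc1 (0.317) and Vwf (0.362). The marker differences described above run through all 8 libraries, and nearness over these libraries was not tested within germ cells.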

How the data were processed

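Poly(A) RNA-seq of 8 libraries from SSC cultures was analysed, 2 in each group of genotype and medium. The authors deposited raw counts per Ensembl gene, neither normalized nor pooled. Per the submitters' processing notes, reads were mapped with STAR 2.6.1c to mm10 and counted with featureCounts 1.6.4. The annotation release, the use of strand and the treatment of reads matching several places are not given in the sources used here, so levels of overlapping genes are uncertain. Coordinates and exon lengths came from GENCODE release M21 (GRCm38), which held 99.67% of the identifiers, and promoters from RefSeq.

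The analysis used edgeR 4.0.16 under R 4.3.3. filterByExpr kept 20588 genes, and Neurog3 passed through 1 group. After TMM scaling, a group-means model of all 8 libraries was fitted by robust quasi-likelihood, and 5 contrasts were tested two-sided with Benjamini-Hochberg adjustment over all genes kept. Calls were made at an adjusted p under 0.05. Totals of 20960794 to 27038868 counts and a biological coefficient of variation of 3.39% set the precision, and values at or below 3 counts were treated as the floor, for counting error only. Libraries of a group differed beyond sampling noise (median chi-square per gene 0.741 to 0.974 against 0.455) and were kept separate. The fit was tested on simulated data. The alternatives were DESeq2 1.42.0 (its size factors or its Wald test), total counts, scaling on pan-germ or, for Kitl, fibroblast genes, no filter, the 4 libraries of a contrast, a replicate block and leaving out each library.

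The 8 genes and the lists of signalling genes, relatives, partners and targets, cell cycle genes and cell type markers were chosen with earlier results of these data known. All 8 genes are named. From the lists of related and pathway genes, the text draws on up to 3 called genes per direction and contrast, by size of change, with libraries that do not overlap and an average log2 CPM of at least 1. Other genes named (Pdgfra, Kdr, Nobox, Rptor, Fam241b and marker genes) were chosen after their values were seen. Of the genes nearest in profile, 1 is not reported here. Standard errors are the log2 change over the square root of F.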

Additional observations from a re-analysis of the deposited data

Results flagged for a closer look

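The change under NRRA was compared between Stra8KO and Spo11KO-labelled cultures by edgeR's test of the interaction. Of the 7 genes kept by the filter through all groups, 3 were called higher and 2 lower (71.4%, against 24.7% of all genes tested). The interaction of Nanos3 was 3.11 and that of Dmrtb1 1.47 on the log2 scale, and in both cases each NRRA library lay above the Veh libraries in Stra8KO and below them in Spo11KO-labelled cultures. Dmrt1 had an interaction of 0.71, with the larger rise in Stra8KO. Neurog3, left out of these counts, had 2.38, on 4 to 37 counts per library. It was kept by the filter only through its level in Stra8KO NRRA. Kit had an interaction of -0.87, with a rise in both genotypes and the larger in Spo11KO-labelled cultures. That of Sohlh2 was -0.2, from changes of -0.073 and 0.12. With 2 libraries in each group, single libraries could not be tested as outliers within their group.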

How the results depend on the processing

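Counts of genes called in either direction, with Neurog3 included, kept within 1.5 times of the main analysis in 220 of 222 cases over the alternatives. The exceptions were the Kit signalling interactions, which ranged from 16 to 25 when a library was left out, and the cell cycle genes under NRRA in Stra8KO, of which 12 were called with pan-germ scaling against 7. Direction was not part of this comparison, and it depended on scaling. For Stra8KO against Spo11KO-labelled cultures in Veh, the 7 genes other than Neurog3 had 1 higher and 5 lower with TMM. With pan-germ scaling 6 were higher and 0 lower. The Kit signalling genes went from 24 higher and 21 lower to 48 and 0. Of 597 values of single genes over the alternatives, 562 kept their direction and side of the threshold.

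Values that changed sign did so mainly with pan-germ scaling, which moves the median of all genes by construction. For Stra8KO against Spo11KO-labelled cultures in Veh it gave 1.01 for Kit, 0.66 for Sohlh1, 0.19 for Sohlh2, 0.00038 for Dmrt1, 0.53 for Dmrtb1 and 0.66 for Nanos3. After NRRA it gave 0.084 for Kit, 0.37 for Sohlh1 and 0.65 for Dmrt1, and for NRRA against Veh in Spo11KO-labelled cultures it gave -0.057 for Sohlh2 and -0.056 for Dmrt1. Fibroblast scaling gave -0.006 for Kitl in Veh. Leaving out a library turned uncalled values only: Kit between the genotypes in Veh (-0.11 to 0.048), Neurog3 under NRRA in Spo11KO-labelled cultures (-0.72 to 0.53, with 0.042 without NRRA replicate 1) and Neurog3 between the genotypes in Veh (-0.047 to 1.16).

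Groups share replicate numbers, but deviations of same-numbered libraries correlated at -0.0271 to 0.0558, so the numbers were not taken as pairs. With the replicate block, no call of the 8 genes changed in the 5 contrasts. DESeq2 did not call the fall of Kitl in Stra8KO (-0.18, adjusted p = 0.0820) or the interaction of Neurog3. Depth limits Neurog3 and, in Spo11KO-labelled NRRA, Nanos3. With 2 libraries a group, an interval rests on the spread pooled over all groups.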

Other observations

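Some marker genes listed for other cell types had the pattern of Nanos3. Hdc, the histidine decarboxylase gene listed among mast cell markers, rose by 0.86 in Stra8KO (SE 0.195, edgeR adjusted p = 0.000344) and fell by 2.51 on the log2 scale in Spo11KO-labelled cultures (SE 0.269, edgeR adjusted p = 1.61e-10), while the mast cell genes Cpa3, Tpsab1, Tpsb2 and Mcpt4 were at 3 counts or fewer in every library. Pecam1, an adhesion gene listed among endothelial markers, rose by 0.92 in Stra8KO (SE 0.162, edgeR adjusted p = 8.39e-06) and fell by 2.16 in Spo11KO-labelled cultures (SE 0.211, edgeR adjusted p = 1.5e-11). The other endothelial markers did not share this pattern as a set. From Veh to NRRA, mean Cdh5 fell from 5.75 to 1.27 CPM in Stra8KO and from 3.40 to 2.53 CPM in Spo11KO-labelled cultures. In the latter, mean Emcn (0.344 to 1.29 CPM), Tek (0.773 to 1.76) and Tie1 (0.299 to 0.650) rose, as they did in Stra8KO. Kdr moved in the directions of Pecam1 but was not called in either genotype. The 6 endothelial markers summed to 8.95 to 15.0 CPM and the 8 macrophage markers to 39.6 to 69.6 CPM, the latter higher in Stra8KO. Hdc and Pecam1 were named after their values were seen.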
